A study of Drosophila melanogaster with 18 samples.

Results

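The 29 genes described here encode nuclear subunits of complex III, complex IV and ATP synthase, together with cytochrome c, in whole adult female *Drosophila melanogaster*. They were chosen by symbol: names that begin with UQCR-, with COX and a digit, or with ATPsyn, and the genes RFeSP, Cyt-c1, Cyt-c-p and ox, provided that their level averaged 1 FPKM or more across the 18 libraries. FPKM counts fragments relative to transcript length and to the library's total, so levels are per length and can be set side by side between genes. The rule matched 38 of the 17658 genes in the tables, and 29 of those were among the 9921 genes that reached the limit. The 9 that did not were low-level genes with names that mostly extend a member's symbol, among them UQCR-11L at 0.703 FPKM, the closest below the limit. COX5BL at 2.07 FPKM was the closest above it, and the other 28 members all averaged over 100 FPKM.

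Control flies carried the genotype w;;+/UAS-Tudor-SN RNAi, an RNAi transgene with no driver. Knockdown flies were w;;Da-GAL4/UAS-Tudor-SN RNAi, in which the broadly active daughterless driver switches on the same transgene (Bloomington #34865). Flies of each genotype were 1 to 5 days old, were kept at 25 °C on a mashed potato diet, and stayed at atmospheric oxygen (normoxia) or spent 6 h at 6% O2 or 2% O2. Each of the 6 groups had 3 biological replicate libraries, each from 10 flies, and no group with the driver alone was analysed here, so effects of the driver and of Tudor-SN RNAi cannot be told apart. The comparisons ask how transcript levels differ between genotypes at each oxygen level and between oxygen levels in each genotype.

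Complex III takes electrons from ubiquinol and passes them to cytochrome c, a small soluble carrier in the intermembrane space. Complex IV, cytochrome c oxidase, passes them on to oxygen, and both complexes pump protons across the inner mitochondrial membrane. ATP synthase lets the protons flow back through a ring of c subunits, whose rotation drives the catalytic head that makes ATP. Insect flight muscle is among the most mitochondria-rich tissues known. The catalytic core of complex IV, cytochrome b of complex III and some subunits of ATP synthase are encoded in the mitochondrial genome. The 38 entries listed for that genome, with symbols beginning mt:, were at 0 in every library, so only the nuclear side could be followed.

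Tudor-SN, an RNA-binding nuclease and the target of the RNAi, stood at 9.28%, 7.33% and 3.32% of the control level in normoxia, 6% O2 and 2% O2. Summed FPKM ran from 876999 to 1000923 per library, and read totals are unknown. Spacing of the lowest values put the relative depth at 0.976 to 1.03 against control normoxia replicate 1, and at 0.880 in knockdown 2% O2 replicate 3. The 9 male testis and accessory gland markers found in the tables averaged at most 0.184 FPKM. Values below are scaled FPKM, deposited FPKM divided by a median-of-ratios factor per library. Differences are log2(scaled FPKM + 1) ± SE from limma with 3 libraries in each group, and a gene was called where its p, adjusted over all 9921 genes by Benjamini-Hochberg, was under 0.05. These p-values rest on 1 estimate per gene of the spread between libraries of pooled flies, shared by all 6 groups. The replicate spread was not equal between groups, so they do not measure the spread of the compared groups alone.

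The members were among the more abundant transcripts of the fly, at 2.10% to 3.52% of the summed FPKM of a library. Among ATP synthase genes mean levels over the 18 libraries spanned 594 FPKM for ATPsyngamma, the rotating shaft of the enzyme, to 3075 FPKM for ATPsynC, the c subunit of the ring. In complex III the range was 323 FPKM for Cyt-c1, the haem subunit that hands electrons to cytochrome c, to 1260.1 FPKM for ox, one of its smallest subunits. In complex IV it was 2.07 FPKM for COX5BL to 1312 FPKM for COX7C. Cyt-c-p, the somatic cytochrome c, averaged 962 FPKM. The genes lie on all the major chromosomes, with 9 on 3R, 6 on 2L, 6 on 3L, 4 on 2R, 3 on X and 1 on 4. Apart from COX5BL, the median coefficient of variation between replicates was 5.69% in control and 3.06% in knockdown flies in normoxia, but 20.0% in knockdown flies at 2% O2.

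In normoxia, 27 of the 29 genes were lower in knockdown than in control flies and none was higher. Among all genes tested 10.1% were called lower and 5.90% higher. The members' median log2 difference was -0.45, against -0.01 over all genes, and the 27 lay in a narrow band, from 63.6% of the control level for ox to 78.5% for ATPsynC. The 3 knockdown libraries all lay below the 3 control libraries for the same 27 genes, as they did for 19.1% of all genes. In whole flies, fewer cells rich in mitochondria and less RNA per cell cannot be told apart.

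**Figure D1:**
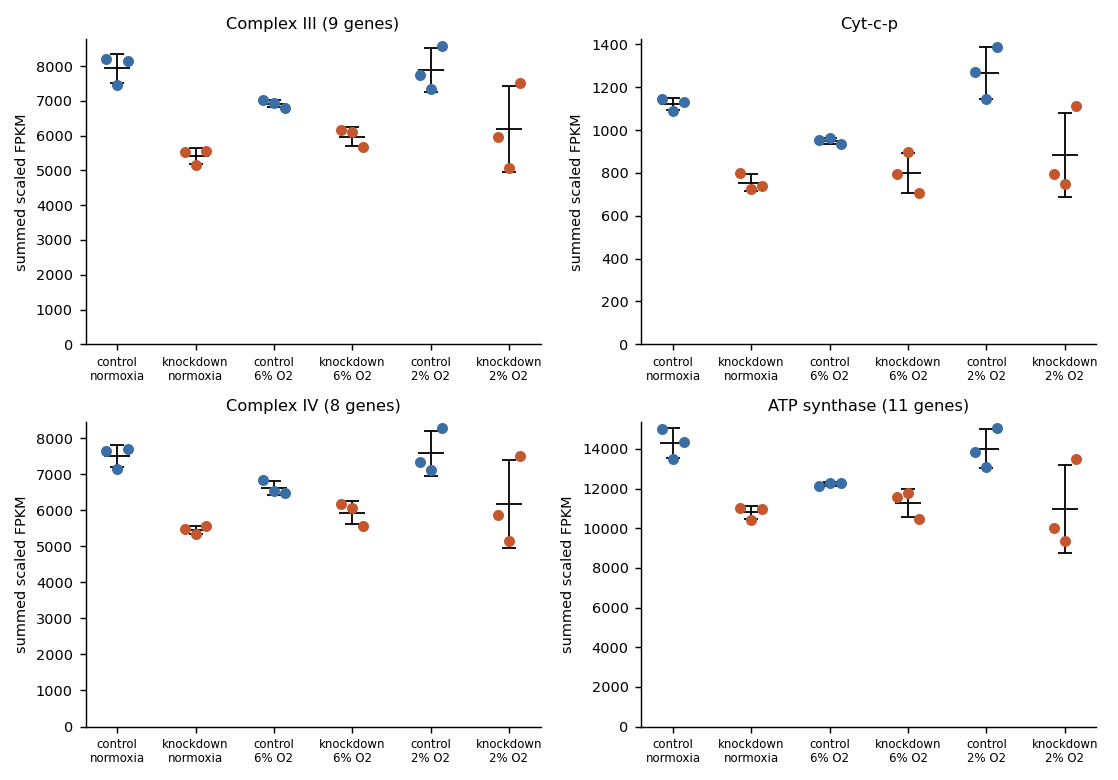
Summed scaled FPKM per library (points) of complex III, Cyt-c-p, complex IV and ATP synthase genes in the 6 groups, with the mean and SD of 3 libraries (bars). In normoxia every knockdown library lies below every control library in all 4 panels, and at 2% O2 knockdown replicate 3, the rightmost point, lies far above the other knockdown libraries.

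All 9 complex III genes were lower in normoxia, and their summed level was 68.3% of control. The smallest adjusted p belonged to UQCR-6.4, a small supernumerary subunit (BDGP6 chromosome 2R, 17572096 to 17572784), at 1237, 1166 and 1317 in control libraries and 834, 713 and 839.6 in knockdown libraries. The groups were well apart (log2 -0.64 ± 0.102, limma adjusted p = 0.00127). RFeSP, the Rieske iron-sulfur protein that accepts the first electron from ubiquinol (chromosome 2L, 1612429 to 1614160), stood at 715, 607 and 659 in controls and 434, 418 and 425 in knockdowns. Its highest knockdown library was well under its lowest control library (log2 -0.63 ± 0.115, adjusted p = 0.00312). The difference was least for UQCR-C1, a core subunit on the matrix side (chromosome 3R, 14890231 to 14892387), at 640.0, 534 and 599 against 466, 454 and 455 (log2 -0.36 ± 0.101, adjusted p = 0.0263). Here too no library of one genotype reached the other. In ox the levels were 1520.0, 1428 and 1603 in controls against 983, 906 and 1004 in knockdowns. The other called members of the complex were Cyt-c1, the second core subunit UQCR-C2, and the supernumerary subunits UQCR-14, UQCR-Q and UQCR-11. Their knockdown means ran from 65.7% of control in UQCR-14 to 76.4% in UQCR-11.

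Cytochrome c followed the same direction. Cyt-c-p (chromosome 2L, 16719932 to 16722644) stood at 1144, 1091 and 1129.8 in control libraries and 799, 724 and 739.9 in knockdown libraries. The knockdown mean was 67.2% of control, with no overlap (log2 -0.57 ± 0.118, adjusted p = 0.00599).

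In complex IV, 6 of 8 genes were lower, namely COX4, COX5A, COX5B, COX6B, COX7C and COX8, all structural subunits around the catalytic core. COX5A, on the matrix side (chromosome 3R, 11819359 to 11820299), was at 1246, 1143 and 1209.8 in controls and 847, 853 and 836 in knockdowns. Its knockdown libraries differed by far less than the gap to the controls (log2 -0.50 ± 0.0950, adjusted p = 0.00368). COX5B, a zinc-binding subunit (chromosome 2L, 6557800 to 6559308), was at 688, 631 and 654 against 413, 409.7 and 444 (log2 -0.64 ± 0.123, adjusted p = 0.00432). The groups did not overlap, and the knockdown mean was 422 ± 19.0 against 658 ± 28.7 (SD, n = 3). The other 4 stood between 65.2% of control in COX7C and 74.6% in COX8.

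COX5BL and COX7A were the members that did not fall. COX5BL (chromosome 2L, 6559431 to 6560133) starts just downstream of COX5B on the same strand. Its libraries were at 2.58, 1.51 and 2.22 in controls and 1.72, 2.60 and 2.93 in knockdowns, which overlapped (log2 0.14 ± 0.190, adjusted p = 0.63). COX7A, a small membrane subunit (chromosome 3R, 8339944 to 8341043), was at 446, 445 and 465 in controls and 490.4, 507 and 481 in knockdowns. All its knockdown libraries lay above its control libraries, but the difference missed the threshold (log2 0.12 ± 0.0469, adjusted p = 0.0827). It passed with FPKM as deposited (adjusted p = 0.0497) and with quantile normalisation (adjusted p = 0.00509).

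**Figure D2:**
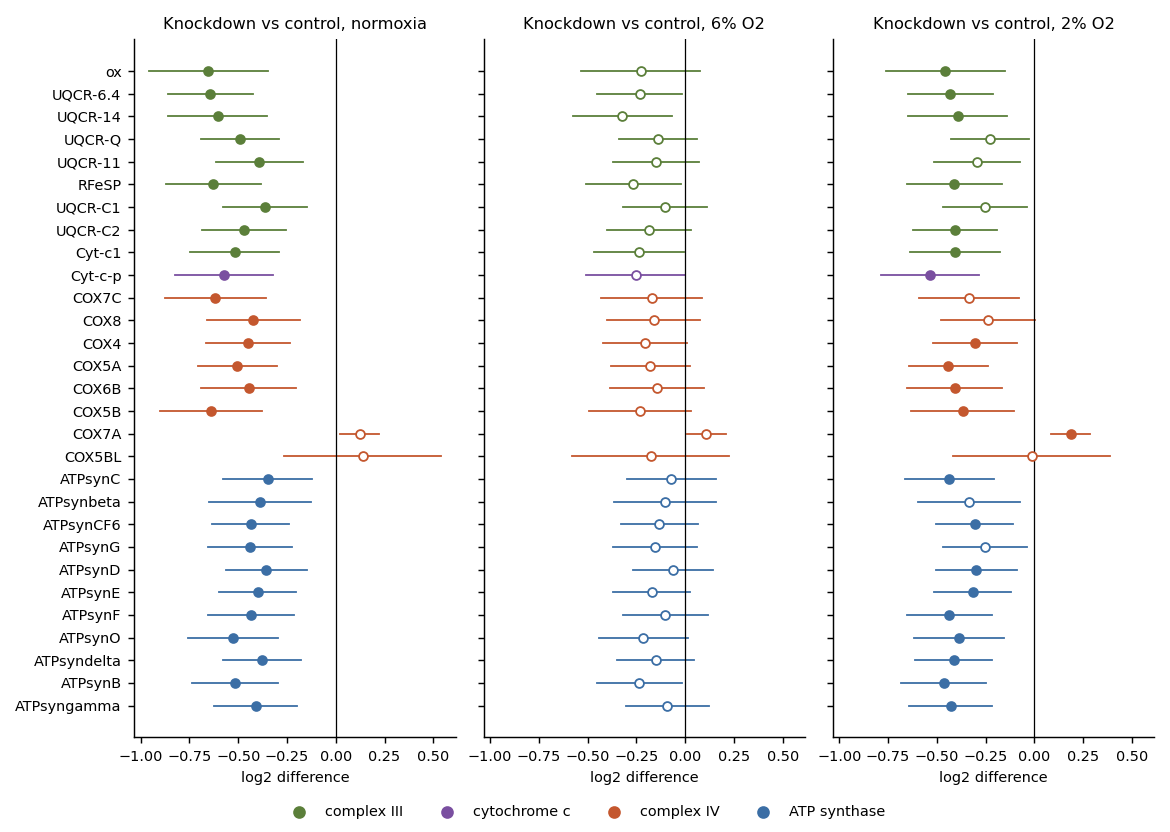
Log2 difference of scaled FPKM plus 1 between knockdown and control flies for each member at each oxygen level, with 95% confidence intervals from limma; filled points were called. In normoxia 27 filled points lie left of 0, at 6% O2 none is filled, and at 2% O2 20 lie left of 0 and COX7A right of it.

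All 11 ATP synthase genes were lower in normoxia, and their sum was 75.6% of control. The smallest adjusted p were in the peripheral stalk that holds the catalytic head still. ATPsynB, its b subunit (chromosome 3L, 9729999 to 9731224), was at 807, 732 and 776 in controls and 552, 532 and 533 in knockdowns (log2 -0.52 ± 0.103, adjusted p = 0.00499). ATPsynO, the subunit that joins the stalk to the head (chromosome 3R, 15265591 to 15266690), was at 882, 789.8 and 862 against 612, 549 and 596 (log2 -0.53 ± 0.108, adjusted p = 0.00558). In both genes the groups were clear of each other. The least difference was in ATPsynC (chromosome 3R, 31216145 to 31219630), at 3870.1, 3539 and 3664 against 2985, 2718 and 2989.7 (log2 -0.35 ± 0.107, adjusted p = 0.0385). The lowest control library of ATPsynC was still above its highest knockdown library. Also called were the catalytic subunit ATPsynbeta, the central stalk subunits ATPsyngamma and ATPsyndelta, the peripheral stalk subunits ATPsynD and ATPsynCF6, and the membrane subunits ATPsynE, ATPsynF and ATPsynG. Their knockdown means were close together, from 73.7% of control in ATPsynG to 78.0% in ATPsynD.

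At 6% O2 none of the 29 genes was called between the genotypes. Among all genes 12.6% were called lower and 12.0% higher, so the background was no thinner than in normoxia. By limma, 7 members had an unadjusted p under 0.05, a smaller share than the 41.2% of all genes. Of the 29 differences 28 were below 0, the median was -0.17 against -0.01 over all genes, and 18 members had all knockdown libraries below all controls, as did 23.9% of all genes. Estimates ran from 80.0% of control for UQCR-14 (log2 -0.32, adjusted p = 0.0595) to 95.9% for ATPsynD (log2 -0.06, adjusted p = 0.644) among the members other than COX7A and COX5BL. For Cyt-c-p the control libraries were at 952, 962 and 935 and the knockdown libraries at 794, 896 and 709. They did not overlap but were closer than in normoxia (log2 -0.25 ± 0.118, adjusted p = 0.118). UQCR-C1 was the nearest to 0 in complex III (log2 -0.10 ± 0.101, adjusted p = 0.438). The knockdown sum over the members was 89.8% of control. Weighting libraries by their quality in limma (array weights) called 14 members lower and COX7A higher, against 0 without weights.

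At 2% O2, 20 members were lower in knockdown flies and 1, COX7A, was higher, where 8.50% and 11.7% of all genes were called lower and higher. The median difference was -0.39 against 0.00 over all genes. Only 9 members had knockdown libraries all below the controls, and 15.0% of all genes did. Knockdown replicate 3 stood apart: the members' sum was 29630 there against 22677 and 20294 in replicates 1 and 2, and 28697 to 33308 in controls. Without that library 27 members were called lower and COX7A higher. Leaving out control replicates 1 or 3, or knockdown replicates 1 or 2, left 10, 10, 8 and 10 called, and a fit of only these 6 libraries called 0.

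Cyt-c-p was the most lowered member at 2% O2, at 1271, 1146 and 1387 in controls against 797, 747 and 1111 in knockdowns. The highest knockdown library came within a few percent of the lowest control without crossing it (log2 -0.54 ± 0.118, adjusted p = 0.00531). COX5A stood at 1266, 1184 and 1334 in controls and 883, 795 and 1137 in knockdowns (log2 -0.44 ± 0.0950, adjusted p = 0.00439). ATPsynB stood at 779, 732 and 862 against 519, 502 and 716 (log2 -0.47 ± 0.103, adjusted p = 0.00531). Both kept their groups apart, by a small margin, with knockdown replicate 3 the nearest to the controls. The smallest adjusted p of complex III were in UQCR-6.4 (log2 -0.43 ± 0.102, adjusted p = 0.00815) and UQCR-C2 (log2 -0.41 ± 0.101, adjusted p = 0.0105), and ATPsyndelta followed ATPsynB in its class (log2 -0.41 ± 0.0931, adjusted p = 0.00586). The members not called were UQCR-Q, UQCR-11, UQCR-C1, COX7C, COX8, COX5BL, ATPsynbeta and ATPsynG. Among these the difference was -0.23 ± 0.0939 for UQCR-Q (adjusted p = 0.0981), -0.25 ± 0.101 for ATPsynG (adjusted p = 0.0899) and -0.02 ± 0.190 for COX5BL (adjusted p = 0.969).

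COX7A lay on the other side of the control level from the other abundant complex IV genes. At 6% O2 it was at 444, 434 and 437 in controls and 502, 449 and 470.2 in knockdowns (log2 0.11 ± 0.0469, adjusted p = 0.0929). At 2% O2 it was at 367, 379.8 and 401 against 432, 427 and 446 (log2 0.19 ± 0.0469, adjusted p = 0.0113). At both oxygen levels all knockdown libraries were above all controls. The call at 2% O2 was lost without control 2% O2 replicate 1 (limma adjusted p = 0.0624) and in a fit of only the groups compared (0.0903). Set against the summed level of COX4, COX5A, COX5B, COX6B, COX7C and COX8 in the same library, a ratio that does not depend on scaling, COX7A amounted to 6.43% ± 0.226 in control and 9.95% ± 0.515 in knockdown flies in normoxia (SD, n = 3). The ratios were 7.10% ± 0.141 and 8.69% ± 0.617 at 6% O2, and 5.33% ± 0.290 and 7.77% ± 1.38 at 2% O2. No control library reached the lowest knockdown library of its oxygen level. This ratio was formed after the values of COX7A had been seen and is given as a description, with no test.

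**Figure D3:**
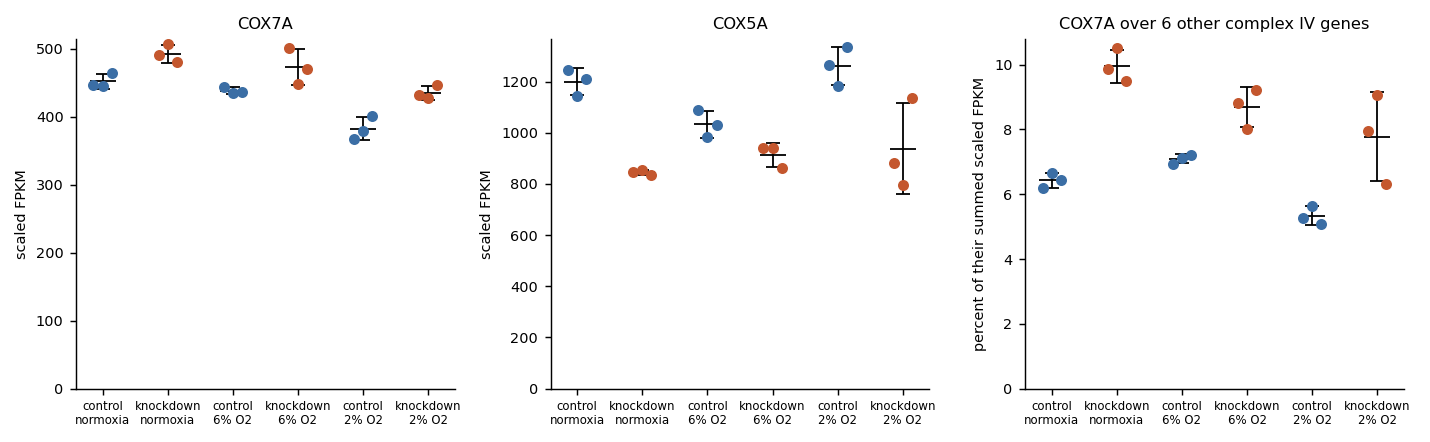
Scaled FPKM of COX7A and COX5A, and COX7A as a percentage of the summed scaled FPKM of 6 other complex IV genes, per library (points) with the mean and SD of 3 libraries (bars). COX7A is higher in knockdown libraries at each oxygen level while COX5A is lower, and the ratio in normoxia is 6.20% to 6.65% in controls and 9.49% to 10.5% in knockdowns.

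In control flies, 6 h at 6% O2 called no member and no gene at all (0.00% of those tested) by limma. The differences from normoxia nevertheless all lay below 0, with a median of -0.19 against 0.00 over all genes, and 9 members had an unadjusted p under 0.05, as did 13.4% of all genes. In 24 members the 3 libraries at 6% O2 were all below the 3 in normoxia, where 7.27% of all genes were. The smallest p were in UQCR-Q, at 930, 854 and 1005 against 1143, 1045 and 1134 (log2 -0.25 ± 0.0939, adjusted p = 0.269), and ATPsynC, at 2966, 3142 and 3052 against the normoxia values above (log2 -0.27 ± 0.107, adjusted p = 0.294). In both genes the libraries of the oxygen levels did not overlap. Control libraries of normoxia and 6% O2 also entered the genotype comparisons above, so the values are not independent of those.

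At 2% O2, in separate control flies, the members were on the median near the normoxia level. The median difference was 0.01, and COX7A was the single member called, lower at 367, 379.8 and 401 against 446, 445 and 465 (log2 -0.24 ± 0.0469, adjusted p = 0.00112). Its groups were clear of each other. Of all genes 14.7% were called lower and 15.4% higher in that comparison. Between 6% and 2% O2, 4 members were higher at 2% and COX7A was lower (log2 -0.20 ± 0.0469, adjusted p = 0.00448), against 16.9% and 15.2% of all genes. Both are larger shares than those of the 29 members. The 4 higher members were Cyt-c-p (log2 0.41 ± 0.118, adjusted p = 0.0146), COX5A (0.29 ± 0.0950, adjusted p = 0.0309), UQCR-Q (0.27 ± 0.0939, adjusted p = 0.0399) and ATPsynG (0.28 ± 0.101, adjusted p = 0.0458). Libraries at 2% O2 lay above all those at 6% O2 in 21 members, as in 22.9% of all genes. The number called moved from 5 to 1 without control 2% O2 replicate 3, to 2 without control 2% O2 replicate 1 or control 6% O2 replicate 2, to 3 without control 6% O2 replicate 1 or 3, and to 14 in a fit of only those 2 groups.

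In knockdown flies the members were not lower at 6% O2. Of the 29 differences from normoxia 27 were above 0, with a median of 0.10, and none was called, against 0.0403% of all genes lower and 0.585% higher. By limma 1 member, COX5BL, had an unadjusted p under 0.05, against 7.52% of all genes (log2 -0.41 ± 0.190, adjusted p = 0.659), and COX7C had the next smallest (log2 0.24 ± 0.121, adjusted p = 0.731). At 2% O2 the knockdown flies had more of UQCR-Q, at 877, 874 and 1128 against 779, 791 and 790.0 in normoxia (log2 0.28 ± 0.0939, adjusted p = 0.0205), and of ATPsynG, at 897, 902 and 1211 against 847, 789.6 and 801 (log2 0.29 ± 0.101, adjusted p = 0.0237). In both the 2% O2 libraries lay above the normoxia ones, replicate 3 far above. COX7A was lower (log2 -0.18 ± 0.0469, adjusted p = 0.00430). This comparison called 27.0% of all genes lower and 28.5% higher, a larger share than the 3 of 29 members. The count was 14 without knockdown 2% O2 replicate 2 and 5 without replicate 3. Between 6% and 2% O2 COX7A alone was called, lower (log2 -0.12 ± 0.0469, adjusted p = 0.0427), against 25.5% of all genes lower and 26.2% higher. That call was lost without knockdown 6% O2 replicate 3 or knockdown 2% O2 replicate 1, and the number called was 2 without knockdown 2% O2 replicate 2 and 7 without replicate 3.

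**Figure D4:**
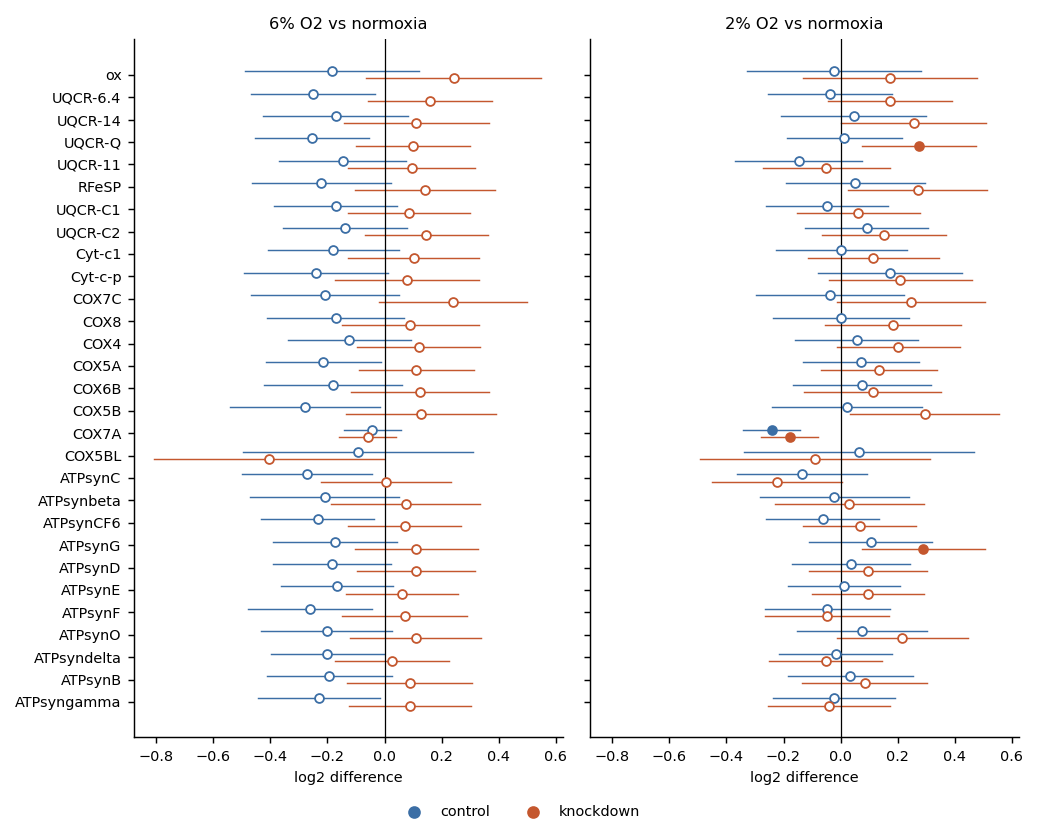
Log2 difference of scaled FPKM plus 1 between each low oxygen level and normoxia for each member, in control and knockdown flies, with 95% confidence intervals from limma; filled points were called. At 6% O2 all 29 control points lie left of 0 and 27 knockdown points right of it, none filled, and at 2% O2 COX7A lies left of 0 in both genotypes.

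Whether the genotypes responded differently was tested directly. For 6% O2 no member and no gene was called (0.00%), although 10 members and 10.3% of all genes had an unadjusted p under 0.05 in limma and the median difference of log2 responses was 0.29, against 0.01 over all genes. In 5 members the groups were apart at 6% O2 in opposite directions, below normoxia in control and above it in knockdown flies, as in 0.685% of all genes. The smallest p were in UQCR-6.4 (0.41 ± 0.145, 95% confidence interval 0.10 to 0.72, adjusted p = 0.361) and UQCR-Q (0.35 ± 0.133, interval 0.07 to 0.64, adjusted p = 0.375). For 2% O2 no member was called either, with none at an unadjusted p under 0.05 in limma, where 25.8% of all genes were, against 2.21% of all genes called lower and 5.43% higher. The median was 0.10, and the smallest p were in UQCR-Q (0.26 ± 0.133, interval -0.02 to 0.55, adjusted p = 0.227) and COX7C (0.28 ± 0.172, interval -0.08 to 0.65, adjusted p = 0.311). Leaving out knockdown 2% O2 replicate 2 called 3 members.

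Other genes of the respiratory chain were also lower in knockdown flies in normoxia. Of 34 complex I genes (symbols beginning ND-), which feed electrons in from NADH, 32 were lower in knockdown flies in normoxia, 6 at 6% O2 and 23 at 2% O2, with medians of -0.47, -0.18 and -0.33. Among all genes 10.1%, 12.6% and 8.50% were called lower at those oxygen levels. All 4 genes of complex II, SdhA, SdhB, SdhC and SdhD, were lower in normoxia (median -0.49), none at 6% O2 and 1, SdhB, at 2% O2. At 6% O2, 0 of them had an unadjusted p under 0.05 in limma, against 41.2% of all genes. Subunits of the same complexes under other symbols were also measured. The complex IV subunits levy (log2 -0.54 ± 0.0997, adjusted p = 0.00316) and cype (-0.54 ± 0.112, adjusted p = 0.00619) and the ATP synthase subunit sun (-0.40 ± 0.0835, adjusted p = 0.00608) were lower in normoxia.

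The ATP synthase alpha subunit blw, which shares the catalytic head with ATPsynbeta, was not called in normoxia (log2 -0.21 ± 0.123, adjusted p = 0.229). At 2% O2 it was lower (-0.38 ± 0.123, adjusted p = 0.0374). The assembly factors Scox (0.12 ± 0.0503, adjusted p = 0.103) and Surf1 (-0.20 ± 0.0862, adjusted p = 0.117) and the testis cytochrome c Cyt-c-d (-0.30 ± 0.119, adjusted p = 0.0956) were not called in normoxia. Of the 7 genes under other symbols, 3, 0 and 3 were lower in normoxia, 6% O2 and 2% O2, against 10.1%, 12.6% and 8.50% of all genes. At 2% O2, 4 of the 7 differences were below 0. There 2 genes had all knockdown libraries above all controls, and 1 had all below. Of 5 transport genes, the ADP/ATP carrier sesB (-0.37 ± 0.112, adjusted p = 0.0355) and the phosphate carrier Mpcp1 (-0.83 ± 0.239, adjusted p = 0.0336) were lower in normoxia. The outer membrane pore porin (-0.12 ± 0.0499, adjusted p = 0.118), Ant2 and Mpcp2 were not called there, and 4 of the 5 differences were below 0. None of the 5 was called at 6% O2, and 1 was lower at 2% O2. In 2 of them all knockdown libraries lay above all controls at 2% O2, and in 1 all lay below. Of the 9921 genes tested, 1987 lay above and 1493 below in that way.

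Of 7 regulators of mitochondrial genes, none was called between the genotypes in normoxia or at 2% O2, with medians of 0.08 and -0.03. At 6% O2 only srl, the fly PGC-1 homologue, was higher (0.20 ± 0.0700, adjusted p = 0.0496), where 12.0% of all genes were called higher. By limma 2 of the 7 in normoxia and 1 at 2% O2 had an unadjusted p under 0.05. Of the 9921 genes tested, 3306 and 3365 did. Shares of all genes called lower and higher were 10.1% and 5.90% in normoxia, and 8.50% and 11.7% at 2% O2.

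Some muscle markers were lower in knockdown flies as well. Of 20 such genes, 7 were lower in knockdown flies in normoxia, 4 at 6% O2 and 2 at 2% O2, with medians of -0.50, -0.33 and -0.22. Among all genes 10.1%, 12.6% and 8.50% were called lower at those oxygen levels, so the 2 of 20 at 2% O2 were near the background. The largest fall in normoxia was in Mf, which encodes a thick filament protein, at 730 against 1850.3 scaled FPKM (log2 -1.34, adjusted p = 0.00607). The markers' summed level was 6404 to 10079.7 scaled FPKM in control and 4707 to 5558 in knockdown libraries in normoxia, 6173 to 6550.0 and 4280 to 5392 at 6% O2, and 7619 to 9459 and 5195 to 8225 at 2% O2. These sums, which weigh abundant genes such as Mf most, overlapped only at 2% O2. Knockdown replicate 3 was the highest of its group there in muscle markers as in the members' sum. With every marker weighted equally (mean log2 deviation from each gene's mean), the genotypes overlapped in normoxia too. The lowest control library was at -0.0508 and the highest knockdown library at -0.0463. In normoxia 9 of the 20 markers had all knockdown libraries below all controls, as did 19.1% of all genes. Control normoxia replicate 1 was the highest of its group in both sums. In knockdown normoxia replicate 3 was the highest in muscle markers (5558), but replicate 1 was the highest in the members' sum (22829 against 22819 in replicate 3). Without control normoxia replicate 1, 2 or 3, in that order, 16, 27 and 18 members were called lower in normoxia. Without knockdown normoxia replicate 1, 2 or 3 the counts were 20, 18 and 24. The members' median stayed between -0.50 and -0.42 whichever library was left out.

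Markers of other tissues are given beside the shares of all genes. Those called lower were 10.1%, 12.6% and 8.50% in normoxia, 6% O2 and 2% O2, and those called higher 5.90%, 12.0% and 11.7%. The gut count at 6% O2 was below that share, and the germline counts at 2% O2 were near it. Of 16 gut markers 9 were lower in knockdown flies in normoxia, 1 at 6% O2 and 0 at 2% O2. At 2% O2, 3 of them had an unadjusted p under 0.05 in limma, as did 3365 of the 9921 genes tested. The gut markers' sums were 1730.5 to 2219.9 in control and 941 to 1330.1 in knockdown libraries in normoxia. Of 17 photoreceptor markers 7, 10 and 4 were lower at the 3 oxygen levels, and their normoxia sums overlapped, at 2016 to 2764 and 1873 to 2117. At 6% O2 the sums were apart, at 2340 to 2868 in control and 1777 to 2053 in knockdown libraries. At 2% O2 they overlapped, at 2689 to 2976 and 2527 to 2736. Of 15 germline markers 3 were higher in normoxia, with sums of 1950.3 to 2123 in control and 2272 to 2316 in knockdown libraries. At 6% O2, 4 were higher and 1 lower, and at 2% O2, 2 were higher and 2 lower. None of the 6 fat body and yolk markers was called in normoxia, and 1, apolpp, was lower at 6% O2. In normoxia 0 of the 6 had an unadjusted p under 0.05 in limma, against 3306 of the 9921 genes tested. At 2% O2 the yolk protein genes Yp2 (log2 0.94 ± 0.297, adjusted p = 0.0401) and Yp3 (0.97 ± 0.273, adjusted p = 0.0238) were higher. The list's sums there, which the abundant yolk protein genes dominate, were 2096 to 2770.4 in control and 3070.1 to 5019.5 in knockdown libraries, with no overlap. With every marker weighted equally the genotypes did overlap, at -0.160 to 0.236 in control and -0.0924 to 0.601 in knockdown libraries. Of the 6 differences 2 were below 0, and in 1 marker all knockdown libraries lay below all controls. Of the gut and fat body lists LysS, Fbp1 and Fbp2 were under 1 FPKM and were not tested. The part of tissue make-up in the members' differences was not tested.

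**Figure D5:**
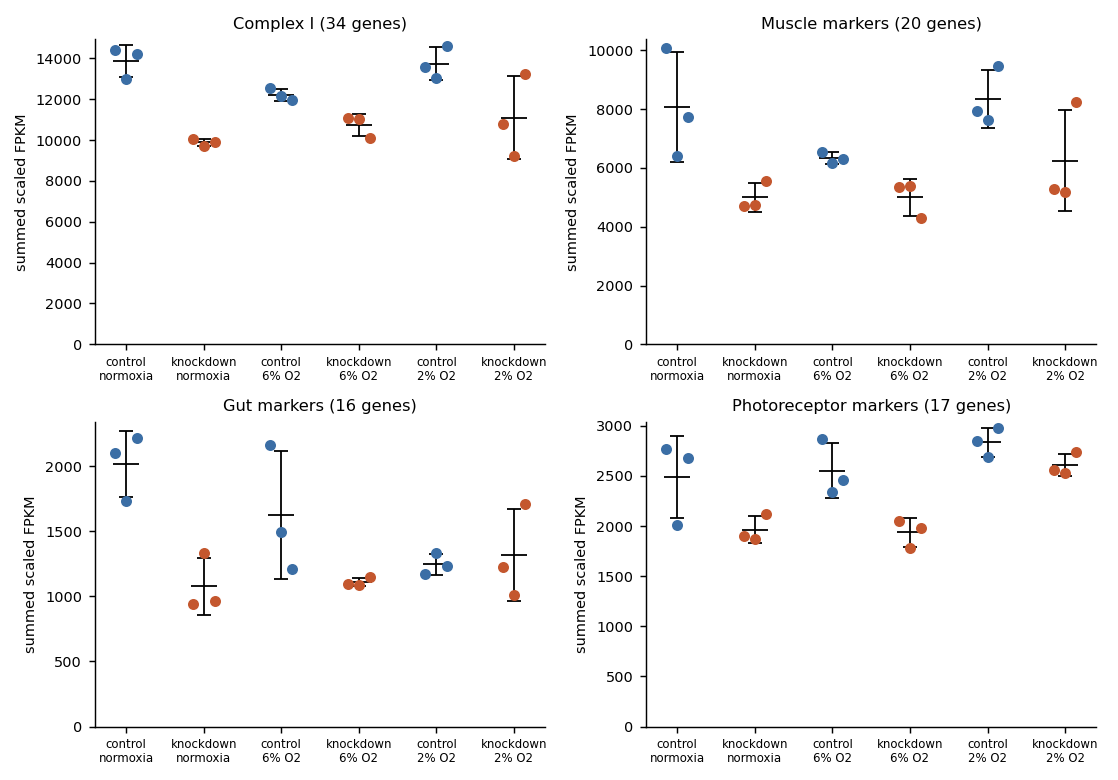
Summed scaled FPKM per library (points) of complex I genes and of muscle, gut and photoreceptor markers in the 6 groups, with the mean and SD of 3 libraries (bars). Complex I and muscle sums are lower in every knockdown than in every control library in normoxia and at 6% O2, and knockdown 2% O2 replicate 3, the rightmost point, is the highest of its group in all 4 panels.

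Neighbouring genes could add reads to some members, since the labels do not say whether the libraries kept strand. On the opposite strand, 12 members overlap another gene, and 3 overlap a gene on the same strand. Where the partner has a level in the tables, a member was at least 10.3 times as high, the least being ATPsynbeta over CG11076 (1814 against 177 FPKM). The partner of COX5BL, Trmt6, was not matched to a level under that symbol. Of the 17 members without an opposite-strand partner 16 were lower in normoxia (median log2 -0.44), and of the 12 with one 11 were lower (median -0.52).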

How the data were processed

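Polyadenylated RNA of whole female flies was sequenced on the BGISEQ-500 platform, as the labels' protocols state. The authors deposited 1 table of FPKM per library. TopHat2, HTSeq and Cufflinks on build BDGP6 are named in the submitters' processing notes, and their versions are not given in the sources used here. FPKM is relative to the library's total and to gene length, so a change in abundant genes shifts the rest. The tables held 0 columns of samples outside the series. Groups came from sample titles and genotypes. Coordinates are 1-based and matched the annotation for 29 of 29 members. FPKM carries no read totals, so counting error is unknown.

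Each library's FPKM was scaled by a median-of-ratios factor (0.945 to 1.03, over 9068 genes above 1 FPKM in all 18 libraries). The log2 of scaled FPKM + 1 was fitted by limma 3.58.1 in R 4.3.3 (6 group means, eBayes with trend and robust options) for the 9921 genes averaging 1 FPKM or more, and p was adjusted by Benjamini-Hochberg within each of the comparisons at a threshold of 0.05. The procedure was run on simulated data in which each gene had the same spread in every group. That run does not cover the unequal spread of the real groups. Ratios were computed in Python 3.11.15. Relative depth is the commonest ratio between libraries among genes with a mean under 0.3 FPKM. Alternatives were other pseudocounts, filters and scalings, a replicate block, array weights, only the groups compared, and each library left out.

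The members, gene lists and tests were chosen with earlier results of these data known. Every member is named; values are given, per class, for the smallest adjusted p, the smallest difference and the extremes of level, and elsewhere for called members or the smallest p. The COX7A ratio was chosen after its values were seen.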

Additional observations from a re-analysis of the deposited data

How the results depend on the processing

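The members' lower level in knockdown flies in normoxia kept its direction under every alternative, with 21 to 27 of the 27 calls under those that left no library out. Medians of all genes moved by under 0.1 with scaling, and COX7A stayed above 0 in every genotype comparison. Array weights called 15 members between genotypes at 6% O2, 17 between 2% and 6% O2 in controls, and 10 and 4 in knockdowns for 2% O2 against normoxia and against 6% O2. A fit of only the groups compared called 3 and 0 between genotypes at 6% and 2% O2, 14 between 2% and 6% O2 in controls, and 1 and 0 in those knockdown comparisons. Quantile normalisation called 3 between genotypes at 6% O2, and 5 and 3 in those knockdown comparisons. It moved the median to -0.265 between genotypes in normoxia, to 0.00144 for 6% O2 against normoxia in knockdowns and to 0.161 for the difference of responses to 6% O2. FPKM as deposited called 1 between genotypes at 6% O2 and 2 between 2% and 6% O2 in knockdowns, and no filter called 3 between 2% and 6% O2 in controls. COX5BL at 2% O2 changed sign with quantile normalisation (0.0227), array weights (0.0378) and libraries left out (-0.0907 to 0.0890), and was never called. The cause of these changes was not tested.

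Of 45 same-numbered pairs of libraries 11 correlated above 0.1 (-0.325 to 0.250). Pairs with different numbers were not compared, so these values cannot settle whether replicate numbers pair the libraries. With a replicate block 27 members were called in normoxia, 1 at 6% O2 and 22 at 2% O2, and 0 between 2% and 6% O2 in knockdowns.

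With each library left out in turn, the members called between genotypes numbered 16 to 27 in normoxia, 0 at 6% O2 and 8 to 28 at 2% O2. Their medians were -0.498 to -0.419, -0.192 to -0.106 and -0.549 to -0.232. For 2% against 6% O2 in controls 1 to 6 were called. In knockdowns 2 to 14 were called for 2% O2 against normoxia and 0 to 7 against 6% O2, and 0 to 3 for the difference of responses to 2% O2.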
